A study of Mus musculus with 2 samples.

Results

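The peaks described here are the EP300 binding sites of the newborn mouse heart that lie between genes at a middle distance, outside every protein-coding gene and over 10 kb and up to 100 kb from the nearest transcription start site (TSS) of a protein-coding transcript. EP300 is a histone acetyltransferase, and its positions were mapped by chromatin immunoprecipitation and sequencing (ChIP-seq). Members were chosen by position alone: the summit of each peak of the optimal list, on chromosomes 1 to 19, was placed on the mm10 assembly and the GENCODE M21 annotation. The rule kept 2927 of 17169 peaks, or 17.0% (95% exact interval 16.5% to 17.6%). All values come from 1 group, heart tissue of strain B6NCrl at postnatal day 0 with no treatment named, measured in 2 libraries labelled replicates 1 and 2. The labels give both libraries the same biosample and donor, so their spread may be technical, and every p-value below compares positions in the genome, not animals. Whole heart holds muscle cells, endothelium, fibroblasts and blood cells, and a site bound in a few cells cannot be told apart from a site bound weakly in many. The files hold peak lists without read counts, so the depth is unknown. Intervals cover counting error only.

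EP300 does not bind a fixed DNA sequence. It is brought to chromatin by transcription factors, acetylates histones around them, among them lysines of histone H3, and peaks of EP300 away from promoters are widely used to find enhancers. Enhancers can act on genes far away and can skip the nearest gene, so the gene named beside a peak is the closest one by distance and not a measured target. In heart muscle, factors of the GATA, MEF2, NKX2, HAND, T-box and TEAD families act at such sites, while ETS factors are characteristic of endothelium. The glucocorticoid receptor binds a palindrome when its hormone is present and recruits coactivators of the EP300 family.

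The 200 bp at 7 of the strongest summits are printed here because the motif results turn on matches of this kind. The last 4 of them hold the palindrome of the glucocorticoid receptor. Windows of ranks 2, 8, 10, 11 and 12 by signal were also read, hold no such palindrome and are not printed. The Ddit4 window, of rank 14, was added for its palindrome, so the 7 do not represent the peaks as a set. Each sequence is the plus strand of GRCm38 (mm10), 5′ to 3′, read from the RefSeq genome, with the nearest protein-coding gene as its name. Capitals mark matches, on either strand, to motifs that passed the test described further on.
Piwil4 window (chr9:14689493-14689692): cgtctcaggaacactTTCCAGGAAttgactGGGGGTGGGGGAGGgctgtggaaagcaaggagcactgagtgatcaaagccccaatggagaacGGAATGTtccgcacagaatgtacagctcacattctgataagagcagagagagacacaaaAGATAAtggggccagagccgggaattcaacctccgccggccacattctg
Fos window (chr12:85532657-85532856): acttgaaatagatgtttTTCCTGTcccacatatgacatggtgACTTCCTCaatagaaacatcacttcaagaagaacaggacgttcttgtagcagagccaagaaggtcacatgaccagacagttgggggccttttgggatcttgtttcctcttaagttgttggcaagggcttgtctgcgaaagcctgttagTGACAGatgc
Ryr2 window (chr13:12133591-12133790): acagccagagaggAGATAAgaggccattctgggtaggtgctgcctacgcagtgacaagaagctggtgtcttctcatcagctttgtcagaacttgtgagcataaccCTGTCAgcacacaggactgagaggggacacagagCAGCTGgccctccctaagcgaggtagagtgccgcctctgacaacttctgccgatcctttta
Ap1m1 window (chr8:72268368-72268567): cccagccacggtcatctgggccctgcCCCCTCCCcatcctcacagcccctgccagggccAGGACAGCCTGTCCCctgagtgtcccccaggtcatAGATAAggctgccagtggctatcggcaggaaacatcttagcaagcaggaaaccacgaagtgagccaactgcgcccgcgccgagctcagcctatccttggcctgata
Nufip1 window (chr14:76149672-76149871): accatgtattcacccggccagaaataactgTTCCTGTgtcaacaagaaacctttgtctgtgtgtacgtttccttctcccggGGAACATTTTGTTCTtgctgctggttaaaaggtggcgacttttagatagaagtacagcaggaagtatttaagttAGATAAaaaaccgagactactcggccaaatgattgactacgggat
Hemk1 window (chr9:107323625-107323824): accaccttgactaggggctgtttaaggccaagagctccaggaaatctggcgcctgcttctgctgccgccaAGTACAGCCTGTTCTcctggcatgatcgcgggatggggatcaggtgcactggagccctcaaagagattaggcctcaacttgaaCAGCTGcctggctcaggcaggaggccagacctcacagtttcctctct
Ddit4 window (chr10:59974189-59974388): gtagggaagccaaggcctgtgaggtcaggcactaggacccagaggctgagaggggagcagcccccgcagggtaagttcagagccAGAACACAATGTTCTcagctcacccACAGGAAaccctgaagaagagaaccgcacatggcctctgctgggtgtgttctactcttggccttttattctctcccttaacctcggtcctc
The window by Ryr2 held a GATA match at bases 14 to 19, a MEIS match at bases 106 to 111 and a class A E-box at bases 140 to 145, counted from 1 at its left end. The window by Fos held an ETS match at bases 18 to 24 and the one by Piwil4 a TEAD match at bases 93 to 99. The receptor palindromes lay at bases 60 to 74 by Ap1m1, 82 to 96 by Nufip1, 71 to 85 by Hemk1 and 85 to 99 by Ddit4. The window by Lclat1, the eighth strongest, held no match to a motif past the test.

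The strongest of these peaks lay by genes of very different roles, and all 12 of the strongest recurred in both libraries. A peak was called recurring when its summit lay within 100 bp of a summit among the first 17372 peaks, by signal, of each replicate list. Signal is the authors' own value for the height of a peak, with no unit stated, and it ranks peaks within a list only. The peak of highest signal had 231 in the optimal list, 135 in replicate 1 and 97.3 in replicate 2, and lay 15.5 kb downstream of a TSS of Piwil4, which encodes a germ-cell protein that binds small RNAs. Its other neighbour was Amotl1, an angiomotin family member that binds the coactivator YAP. The second, 87.6 kb upstream of Ptpn1, a tyrosine phosphatase, had 229 in the optimal list, 128 in replicate 1 and 106 in replicate 2. Cebpb, a leucine-zipper transcription factor, lay on its other side. The third had 228 in the optimal list, 113 in replicate 1 and 114 in replicate 2, between Fos, a subunit of the AP-1 transcription factor, and Jdp2, a leucine-zipper protein that pairs with Jun. It lay 58.9 kb downstream of the TSS of Fos.

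Heart genes stood among the next sites. A peak 92.0 kb downstream of the TSS of Gata6, a zinc-finger factor of heart development, had 220.5 in the optimal list, 117 in replicate 1 and 100.1 in replicate 2, and Rbbp8 was the gene on its far side. A peak 26.7 kb upstream of Ryr2, the channel that releases calcium from the sarcoplasmic reticulum of heart muscle, had 207 in the optimal list, 129.7 in replicate 1 and 77.9 in replicate 2. It was the strongest of 3 peaks 22.4 to 26.7 kb upstream of that gene, whose optimal signals were 44.5, 94.0 and 207 and which all recurred. Mtr, a methionine synthase, lies beyond them. The sixth, by Ap1m1, a clathrin adaptor subunit, and Gm10282, had 202, with 102 in replicate 1 and 95.2 in replicate 2.

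The remaining 6 of the 12 had optimal signals of 165 to 196. The first lay between Nufip1, an RNA-binding protein, and Tsc22d1, a leucine-zipper protein induced by TGF-beta. The next lay between Lbh, a cofactor named for its expression in limb bud and heart, and Lclat1, an acyltransferase of cardiolipin. Others lay between Cish, an inhibitor of STAT5 signalling, and Hemk1, between Hmcn1, a protein of the extracellular matrix, and Gm47985, between Bcl2l11, a protein that promotes cell death, and Spdye4c, and between Jade2 and Cdkn2aipnl. Ranks in the replicate lists were 12 to 192 in replicate 1 and 9 to 92 in replicate 2. The 12 were chosen by signal in a list pooled from these 2 libraries, so the choice itself favours high ranks in both.

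**Figure D1:**
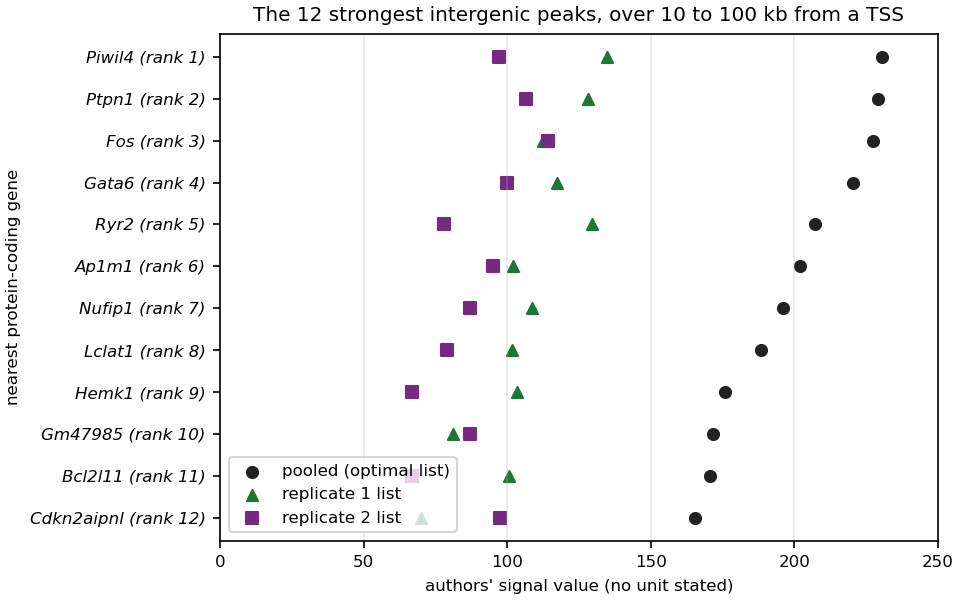
Authors' signal (x axis, no unit stated) of the 12 strongest intergenic peaks (rows, by nearest gene) in the optimal list (circles), the replicate 1 list (triangles) and the replicate 2 list (squares). The optimal values run between 165 and 231, and replicate 2 is above replicate 1 at Fos, Gm47985 and Cdkn2aipnl. Heights of separately called lists are not on 1 scale.

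Across all 2927 peaks, signal ran between 6.91 and 231 with a median of 31.5. Recurrence rose with signal, with 88.7% recurring among the 976 strongest, 43.1% among the next 976 and 2.67% among the 975 weakest. Of the 100 strongest, 99 recurred. Recurrence needs a high rank by signal in each replicate list, and the optimal list pools the same 2 libraries. The trend is therefore partly built into the definition. For the 2630 peaks with a nearby call in each replicate list, the replicate signals correlated with a rho (Spearman) of 0.507 and an r (Pearson) of 0.729, as a description across peaks that share 1 pooled list. A group of 411 peaks had a deposited −log10 q under 1, with signals up to 17.6, and 0 of them recurred, which the definition favours as well. Many calls are near neighbours: joining summits closer than the usual width of a call left 2443 sites, and calls about 200 bp apart share sequence and often the same replicate peak.

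The first comparison asked whether these peaks are as reproducible and as strong as the other peaks away from promoters. They differed little from them. Of the 2927 peaks, 1313 recurred, or 44.9% (43.0% to 46.7%), against 42.3% of 5581 distal intronic peaks, 44.8% of 1128 intergenic peaks over 1 to 10 kb and 47.9% of 1283 intergenic peaks over 100 kb from a TSS. In the whole list 40.9% recurred. None of these 3 differences passed Fisher's exact test, two-sided with Benjamini-Hochberg adjustment over 9 comparisons (adjusted exact p of 0.0677, 0.972 and 0.169). A −log10 q of at least 2 was carried by 1754 peaks, or 59.9%, against 56.7% of the intronic peaks, an odds ratio of 1.14 (adjusted exact p = 0.0403), and against 57.7% of the whole list. The highest signal quintile held 623 of them, or 21.3%, against 18.9% of the intronic peaks, an odds ratio of 1.16 (adjusted exact p = 0.0444), and by construction 20% of the whole list. Both calls against intronic peaks were lost when the leading peaks of replicate 1 were used alone (adjusted exact p = 0.0984 for each) and when intronic peaks were limited to the same distances (adjusted exact p of 0.461 and 0.337). Both calls against intronic peaks held with merged sites (odds ratio 1.19 for each, adjusted exact p of 0.00976 and 0.0290). With the leading peaks of replicate 2 alone the odds ratios were 1.23 and 1.22. Against either intergenic class neither measure passed in the main setting, with adjusted exact p between 0.706 and 0.965.

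The peaks were spread over the whole range of distances that the rule allows. Distances to the nearest TSS had a median of 34.5 kb and quartiles of 20.3 and 56.8 kb, and the median intergenic gap that held a peak was 109.5 kb long. Intergenic sequence at these distances makes up 511 Mb, or 21.3% of chromosomes 1 to 19, and held 5.73 peaks per Mb, against 7.17 per Mb for all peaks over those chromosomes. Density was 6.18 per Mb at 10 to 20 kb, 6.53 at 50 to 60 kb and 4.07 at 80 to 90 kb. Median signal hardly moved with distance, lying between 30.6 and 32.8 in the 9 bins of 10 kb. Upstream of the nearest TSS lay 62.4% of the peaks (60.6% to 64.2%), and 64.3% of the eligible sequence. At the edges of the rule, the 90 peaks at 10 to 11 kb had a median signal of 30.5 and the 106 just outside, at 9 to 10 kb, 32.9. At the far edge the medians were 31.8 for 139 peaks at 90 to 100 kb and 33.0 for 123 peaks at 100 to 110 kb.

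**Figure D2:**
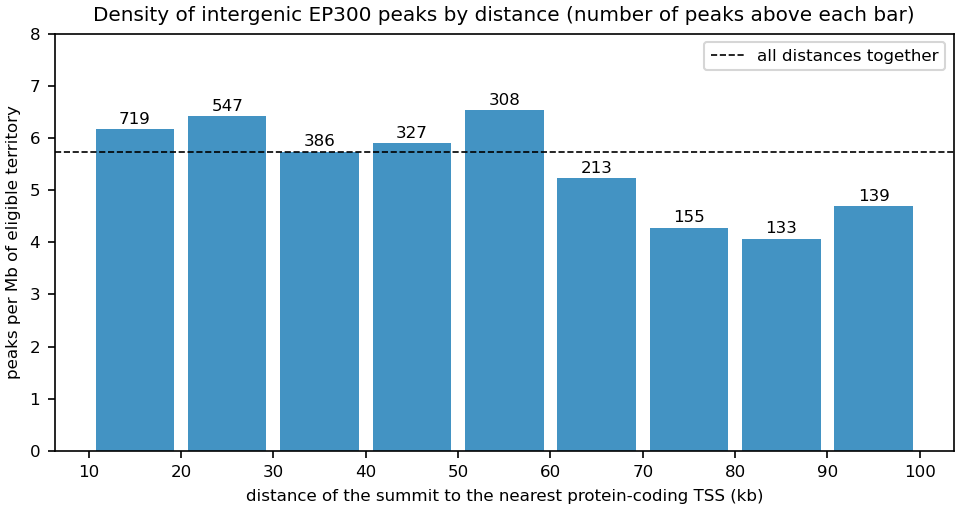
Intergenic EP300 peaks per Mb of eligible sequence (y axis) in bins of distance to the nearest protein-coding TSS (x axis, kb), with the number of peaks above each bar and the value for all distances, 5.73 per Mb, as a dashed line. The bars stand between 5.23 and 6.53 up to 70 kb and between 4.07 and 4.69 beyond.

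The next comparison asked which transcription factor motifs mark the summits. Summits held motifs of several heart muscle and endothelial factors more often than their own surroundings. Each motif was searched on both strands in the 200 bp at the summit and in windows of the same length 1 kb up and downstream. An exact sign test compared summit and downstream windows, with Benjamini-Hochberg adjustment over 26 motifs. Flank shares are means of the upstream and downstream windows, and the upstream window did not enter the test. Of the 26, 17 passed with a higher share at summits and 0 with a lower one. In all 4 distal classes together 76.9% of the motifs passed in that direction, so the number is not a property of these peaks. Summits were also richer in G and C, with a median of 51% against 46.25% in the flanks. The summit base itself was soft-masked as a repeat in 8.20% of peaks, against 26.5% for the single bases 1 kb up and downstream. The part of these differences in the motif shares was not tested.

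Among muscle factors, the MEF2 motif stood in 6.80% of summit windows (5.91% to 7.77%) and in 2.78% of flank windows, a ratio of 2.44 (adjusted exact p = 7.69e-15). MEF2 proteins drive contractile genes. The GATA motif (AGATAA) stood in 16.5% of summit and 10.2% of flank windows (adjusted exact p = 3.52e-12), and the TEAD motif (ACATTCC), bound by the partners of YAP, in 7.0% of summit and 3.04% of flank windows (adjusted exact p = 3.45e-10). The MEIS motif (TGACAG), of homeodomain cofactors, stood in 21.0% of summit and 13.0% of flank windows. The CArG box of SRF, a regulator of actin and muscle genes, stood in 1.61% of summit and 0.717% of flank windows. Several heart factors did not pass. The NKX2 motif (CACTTNA) stood in 11.0% of summit and 9.89% of flank windows (adjusted exact p = 0.354), and the HAND E-box (CATCTG) in 16.0% of summit and 16.8% of flank windows (adjusted exact p = 0.409). The T-box motif (AGGTGTGA) stood in 0.752% of summit and 0.871% of flank windows, and the ERR motif (TCAAGGTCA), of receptors that drive energy genes, in 0.957% of summit and 0.974% of flank windows.

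The class A E-box (CAGCTG), a site of basic helix-loop-helix factors, had the smallest p of all, with 613 of 2927 summit windows, or 20.9%, against 10.2% of flank windows (ratio 2.06, adjusted exact p = 3.38e-27). The ETS motif (ACAGGAA) stood in 13.7% of summit and 6.17% of flank windows, a ratio of 2.22. The longer ETS form found at promoters (CCGGAAGT) stood in 1.20% of summit and 0.256% of flank windows. A PU.1 motif (GAGGAAGT), which shares its GGAA core with ETS, stood in 3.79% of summit and 1.33% of flank windows, and these related motifs can match the same bases. The KLF and SP motif (CCNCNCCC) was the most frequent, in 28.8% of summit and 18.2% of flank windows. The AP-1 motif (TGANTCA) stood in 9.70% of summit and 6.49% of flank windows, and the STAT motif (TTCNNNGAA) in 8.13% of summit and 6.30% of flank windows. SOX (AACAATG) stood in 4.75% of summit and 3.11% of flank windows, and forkhead (TGTTTAC) in 3.55% of summit and 2.61% of flank windows. Rare long motifs had higher ratios: CREB (TGACGTCA) stood in 0.854% of summit and 0.154% of flank windows, and the CTCF motif in 0.957% of summit and 0.171% of flank windows. The HNF4 motif of liver and gut and the octamer of POU factors did not pass, with 0.239% of summit and 0.325% of flank windows for the first (CAAAGTCCA) and 0.581% of summit and 0.974% of flank windows for the second (ATGCAAAT). RUNX (TGTGGTT), the D-box of PAR bZIP clock factors (TTATGNAA) and NFI did not pass either.

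**Figure D3:**
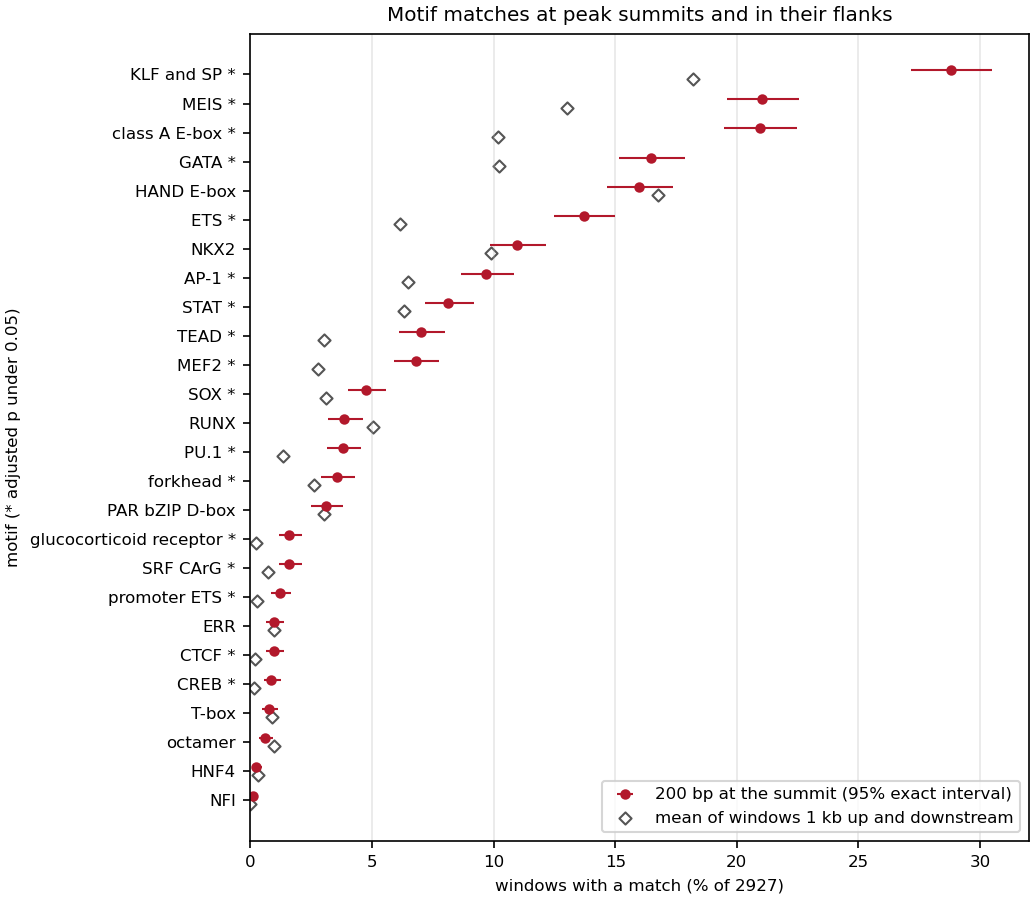
Share of 200 bp windows with a match (x axis, % of 2927) for 26 motifs (rows), at the summit (filled circles with 95% exact intervals) and as the mean of windows 1 kb up and downstream (open diamonds). The KLF and SP motif has 28.8% at summits and 18.2% in flanks, while the NKX2 shares are 11.0% and 9.89%.

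Matches of the E-box, ETS and MEF2 motifs were most frequent close to the summit. Per 1000 peaks, the 50 bp on the left of the summit held 70.0 class A E-boxes and the 50 bp bin 475 bp to the left held 25.3. For ETS the values were 48.5 next to the summit and 17.8 at 475 bp. Right of the summit, the MEF2 values were 23.2 next to it and 6.49 at 475 bp. KLF and SP matches did not peak there, with 129 and 130 per 1000 in the bins on either side of the summit and 151 in the bins centred 175 bp to the left and 125 bp to the right. AP-1 matches were most frequent in the bin centred 75 bp to the right, at 31.8, with 22.2 and 27.0 in the bins next to the summit. A GATA match stood in 38% of the 50 strongest peaks (24.7% to 52.8%), 18% at ranks 51 to 200 (12.2% to 25.1%), 19.4% at ranks 201 to 1000 and 14.6% at ranks 1001 to 2927.

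The palindrome of the glucocorticoid receptor had the highest ratio of all motifs with a match in the flanks. It stood in 47 summit windows, or 1.61% (1.18% to 2.13%), against 0.222% of flank windows, a ratio of 7.23 (adjusted exact p = 2.98e-08). Among the 50 strongest peaks 7 held it, or 14% (5.82% to 26.7%), including those by Gata6, Ap1m1, Nufip1, Hemk1 and Ddit4. The share was 4% at ranks 51 to 200, 1.88% at ranks 201 to 1000 and 0.986% beyond. Over all 4 distal classes together the summit share was 1.89% and the ratio to the flanks 10.3, so the match was not limited to the intergenic peaks over 10 to 100 kb. The centre of the match lay a median of 26 bp from the summit. The 47 peaks had a median signal of 48.8, against 31.3 for the other peaks. Of the 47, 36 recurred, or 76.6%, against 44.3% of the other peaks and 40.9% of the whole list. Recurrence rose with signal, and the part of signal in this difference was not tested. Klf9, a Krüppel-like factor induced by glucocorticoids and chosen here after its values were seen, had such a peak 84.2 kb upstream of its TSS with 159 in the optimal list, 87.9 in replicate 1 and 73.1 in replicate 2.

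**Figure D4:**
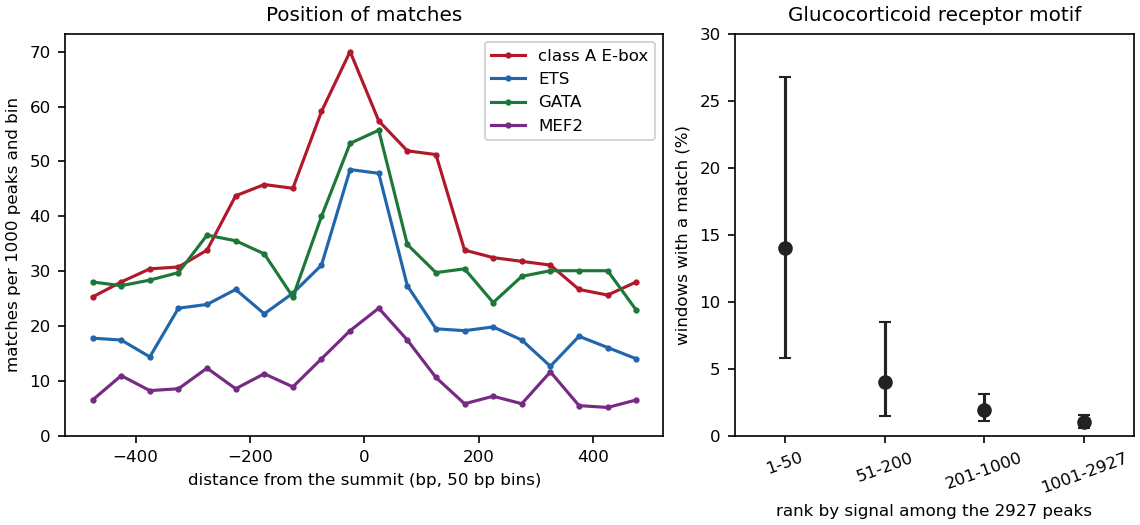
Left, matches per 1000 intergenic peaks in 50 bp bins (y axis) against distance from the summit (x axis, bp) for 4 motifs, with the E-box at 70.0 next to the summit. Right, share of windows with a glucocorticoid receptor palindrome (%, with 95% exact intervals) by rank of signal, 14% among ranks 1 to 50 and 0.986% beyond rank 1000.

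Between distal classes, a minority of motifs differed in frequency. Of 78 comparisons of 26 motifs with 3 classes, 11 passed Fisher's exact test (14.1%), with Benjamini-Hochberg adjustment over the 78. The KLF and SP motif, 28.8% here, was less frequent than in peaks over 1 to 10 kb from a TSS (35.5%, odds ratio 0.736, adjusted exact p = 0.00183) and more frequent than in peaks over 100 kb away (19.4%, odds ratio 1.68, adjusted exact p = 6.03e-09). Both of these calls held under every alternative run. Several motifs of heart factors were less frequent than in peaks over 100 kb away. MEF2 had 6.80% here against 10.3% there (adjusted exact p = 0.00295), GATA 16.5% against 21.0% (adjusted exact p = 0.00708), NKX2 11.0% against 15.1% (adjusted exact p = 0.00295), SOX 4.75% against 7.33% and the HAND E-box 16.0% against 19.5%. Against peaks over 1 to 10 kb, the MEIS motif had 21.0% against 15.9%, GATA 16.5% against 12.9% and the D-box 3.11% against 1.33%. Against distal intronic peaks only the promoter ETS form passed, with 1.20% against 0.520% (adjusted exact p = 0.00838). All of these except the 2 KLF and SP comparisons lost their call under at least 1 alternative, and the number of calls was 3 among peaks of above-median signal. Median G and C content at the summit was 51% here, against 52% in peaks over 1 to 10 kb, 47.5% over 100 kb and 50% in introns, and its part in these differences was not tested.

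Some of the peaks lay at promoters of long non-coding RNAs (lncRNAs), which the rule does not count as genes. The TSS of a lncRNA lay within 1 kb of 237 summits, or 8.10% (7.13% to 9.14%), against 2.40% of distal intronic peaks, 8.51% of intergenic peaks over 1 to 10 kb and 6.00% over 100 kb, shares that were not tested against each other. A lncRNA gene body held 540 summits, or 18.4%. The share was 5.59% in distal intronic peaks, 14.3% over 1 to 10 kb and 21.6% over 100 kb, also without a test. Median signal was 31.6 at lncRNA promoters and 31.5 elsewhere, and 38.8% recurred there, against 45.4% elsewhere. Leaving the lncRNA promoters out, as an alternative chosen after seeing the data, left 17 motifs past the test.

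Grouping was no more common among these peaks than in the whole list, where 62.1% had another peak within 10 kb. Another peak of the optimal list lay within 10 kb of 1719 of the 2927, or 58.7%, against 62.7% of distal intronic peaks, 73.3% of intergenic peaks over 1 to 10 kb and 47.1% over 100 kb, again without a test. Joining summits within 10 kb gave 1907 chains, of which 216 held 3 or more and 29 held 5 or more. These shares, chain sizes and summed signals are of calls before near neighbours are merged. Some sites are therefore counted more than once in them. The chain of highest summed signal, 599, held 12 peaks over 20.1 kb, 48.1 to 67.7 kb downstream of the TSS of Irf2bpl, an intronless gene for a regulator of transcription. Its strongest peak had 96.7 in the optimal list, 61.1 in replicate 1 and 40.5 in replicate 2, and 6 of the 12 recurred. The second, with 588, lay by Ddit4, an inhibitor of mTORC1 that stress and glucocorticoids induce. It held 7 peaks, 6 of them recurring, the strongest with 164 in the optimal list, 97.1 in replicate 1 and 62.2 in replicate 2. The Ddit4 window printed above lies at this strongest summit. Calls 18.1 and 18.3 kb from the TSS had the same replicate values, as did those at 22.5 and 22.7 kb. Such pairs are not separate sites, so the recurring calls of this chain are partly counted double. The chain by Fhl2, a LIM-domain protein of heart muscle, summed to 374 over 7 peaks (6 merged sites), and 2 of the 7 recurred.

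Further chains among the 6 with the highest sums held genes for non-coding RNAs. A chain carries the name of the gene closest to the summit of highest signal in it, and other peaks of a chain can be nearer to another gene. The Gata5 chain lay between Gata5, a cardiac zinc-finger factor, and Slco4a1, a membrane transporter, and 3 of its 12 peaks were nearest to Gata5 and 9 to Slco4a1. Merged, those calls gave 3 and 5 sites in the same order. The chain summed to 451, 4 of the 12 peaks recurred, and it surrounded Mir1a-1 and Mir133a-2, a pair of muscle miRNA genes transcribed together. A summit lay 1591 bp from the start of Mir1a-1 and another 282 bp from the start of Mir133a-2. The strongest of the 12 had 96.3 in the optimal list, 48.9 in replicate 1 and 48.0 in replicate 2.

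The chain by Nanos3, a germ-cell RNA-binding protein, summed to 358 over 9 peaks, 3 of them recurring, of which 6 were nearest to Nanos3 and 3 to Zswim4. Some of the 9 are near neighbours with the same replicate values, such as those 21.0 and 21.2 kb from a TSS. The genes of miR-23a, miR-27a and miR-24 and of the lncRNAs Gm26887 and Gm26532 lay within it. A summit lay 356 bp from the start of Mir23a and another within 1 kb of the start of Gm26887, and the strongest peak of the chain had 90.1 in the optimal list, 55.4 in replicate 1 and 27.0 in replicate 2. The mature 3p sequences of this cluster, from RefSeq on GRCm38, are shown because these miRNA genes lie inside the chain, with the seed (bases 2 to 8) in capitals.
mmu-miR-23a-3p: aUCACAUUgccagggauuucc
mmu-miR-27a-3p: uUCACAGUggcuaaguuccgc
mmu-miR-24-3p: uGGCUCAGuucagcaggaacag
The seeds of miR-23a-3p and miR-27a-3p differ and neither is shared with miR-24-3p, so the cluster holds 3 seed families. Of the 5 miRNA genes named in these 2 chains, 4 had an entry in the RefSeq table. In all, 85 of the peaks, or 2.90%, lay within 10 kb of 1 of 40 miRNA genes. That share was not compared with other peaks or with the eligible sequence, so it is a description only.

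**Figure D5:**
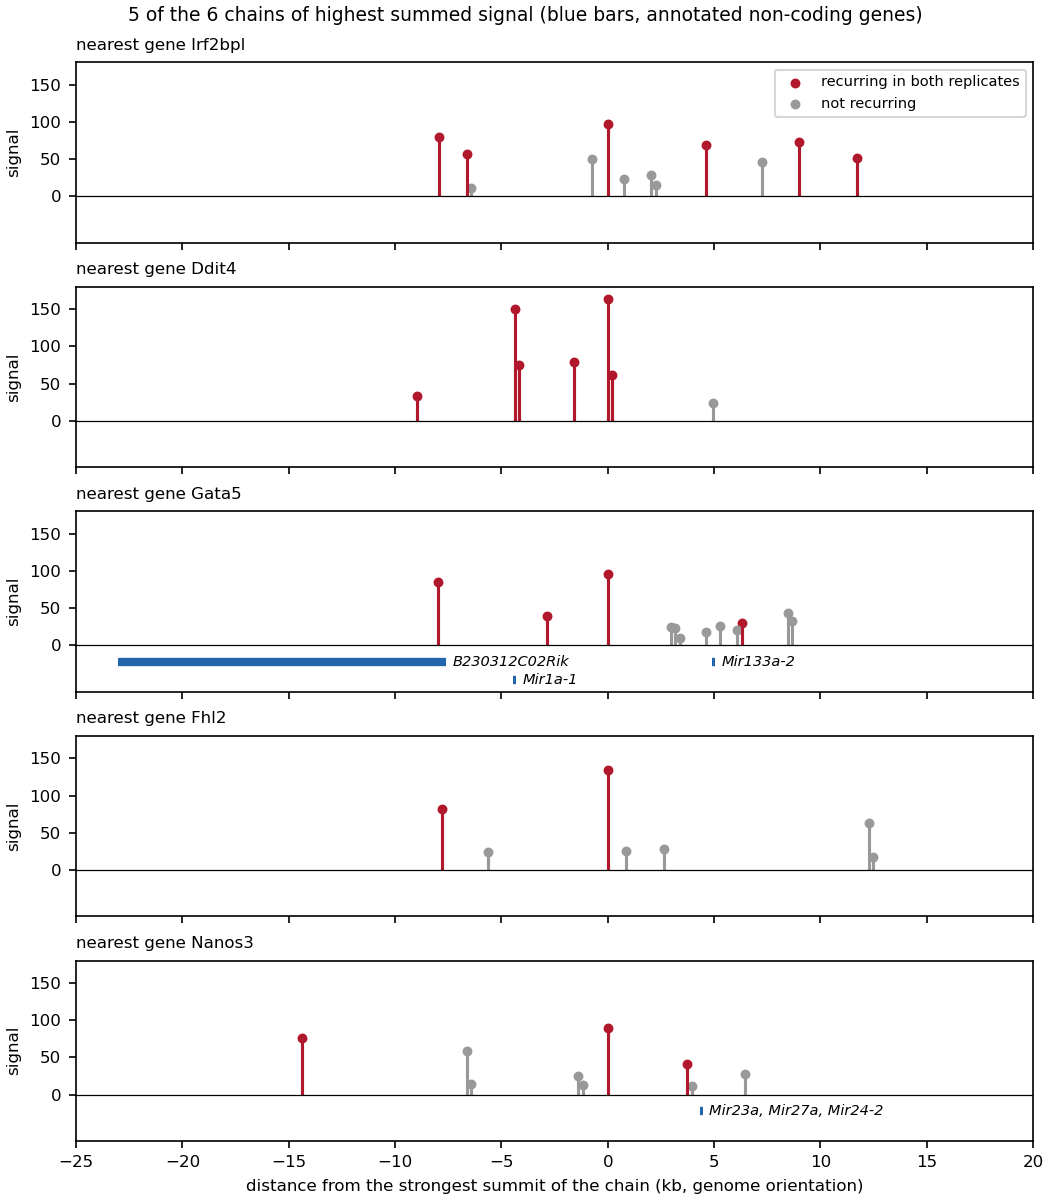
Signal in the optimal list (y axis, no unit stated) of each peak in 5 of the 6 chains of highest summed signal. The x axis is distance from the strongest summit (kb). Peaks are red where they recurred in both replicates and grey where they did not. Blue bars show B230312C02Rik, Mir1a-1, Mir133a-2 and the Mir23a cluster only. Other annotated non-coding genes, such as Gm29040 in the chain by Fhl2, are not drawn. The chain by Ddit4 reaches 164, and the chain by Gata5 spans Mir1a-1 and Mir133a-2.

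By nearest TSS, 1540 of 13252 protein-coding genes that own eligible sequence had at least 1 such peak, which is 11.6%. Most had few, with 850 genes holding 1 peak, 607 holding 2 to 4 and 83 holding 5 or more. A promoter peak in the same list was present at 33.2% of the genes with an intergenic peak and at 15.9% of those without one, as a description. Irf2bpl had the most, with 16 peaks (14 merged sites), followed by Il17b, a cytokine gene, with 15 (9 merged sites). Chd2, a chromatin remodeller, S1pr1, the sphingosine 1-phosphate receptor of endothelium, Qk, an RNA-binding protein, and Tnnt2, cardiac troponin T, had 11 each. Merged, those calls gave 8, 9, 8 and 7 sites in the same order. Ddit4 and Cstad had 10 each (6 and 7 merged sites) and Dapl1 had 9 (6 merged sites). A chain between Csnk1a1, a casein kinase, and Il17b lay around Carmn and Bvht, lncRNAs of cardiac and smooth muscle development, and Mir143 and Mir145a, with a summit 78 bp from the start of Mir145a. The signals of that chain ran up to 43.2 only, and 4 of its 15 peaks recurred. The nearest TSS was that of a flanking gene for 99.2% of the peaks.

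Most gene lists of heart muscle and its signals had such a peak at a larger share of their genes than the background of 11.6%. The lists were chosen with earlier results of these data known, are described without a test, and count only genes with eligible sequence. Numbers of peaks and densities are of calls before near neighbours are merged. Of the cardiac transcription factors, 13 of 23 had at least 1 peak, with a median of 2 peaks over the list, and 19.04 peaks per Mb of their eligible sequence, against 5.73 per Mb for all genes. Mef2a had 7 peaks, the strongest with 106 in the optimal list, 59.9 in replicate 1 and 48.2 in replicate 2. Gata4 had 6, up to 96.3, and Myocd, the coactivator of SRF, had 5, up to 105. Of the genes for the sarcomere and Z-disc, 9 of 19 had a peak, or 6 with the conservative list. The density was 53.6 per Mb, from 22 peaks (16 merged sites), and it leans on 1 gene, Tnnt2. Tnnt2 had 11 of these peaks (7 merged sites), 5 of them recurring, within 19.1 kb of eligible sequence. The strongest had 61.5 in the optimal list, 45.3 in replicate 1 and 22.6 in replicate 2. Ankrd1, a stretch-responsive muscle protein, had 3 and Myl3, a ventricular myosin light chain, had 2, of which 0 recurred at either gene.

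Genes of the heart's work and fuel had similar shares. Calcium handling and ion channels had a peak at 8 of 20 genes, or 5 with the conservative list, and 12.3 peaks per Mb, led by Ryr2, the potassium channel subunit Kcne1 and the calcium pump Atp2a2 with 3 peaks each. Hormone and stress response had 6 of 10 and 24.3 per Mb, led by Fhl2 with 7, Nppb with 5 and the adrenergic receptor Adrb1 with 4. The strongest peak by Nppb, which encodes brain natriuretic peptide, had 84.3 in the optimal list, 49.2 in replicate 1 and 30.8 in replicate 2, at 19.8 kb upstream. Fatty acid and mitochondrial energy genes had 8 of 18 and 25.4 per Mb, led by the fatty acid transporter Cd36 and the lipase Lpl with 4 each and Acsl1, which activates fatty acids, with 3.

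Other cell types of the heart were represented unevenly. Endothelium and endocardium had 12 of 25 genes with a peak and 19.4 peaks per Mb. Kdr, a receptor of vascular endothelial growth factor, led with 6 (4 merged sites). The Notch ligand Dll4 followed with 4 (2 merged sites) and Sox7 with 3. The strongest peaks by these 3 genes had 38.3, 53.1 and 53.3 in the optimal list, in the same order. Fibroblast and matrix genes had 7 of 19 and 7.01 per Mb, led by elastin (Eln) with 3, Col5a1 with 2 and Dpt with 1. Smooth muscle had 1 of 9 (Smtn), epicardium 1 of 8 (Krt19), erythroid cells 1 of 3 (Tfrc) and macrophages 0 of 11. The densities were 5.11 per Mb for smooth muscle, 3.93 for epicardium and 5.58 for erythroid cells. For smooth muscle and epicardium the share is near the background of 11.6%, and 1 gene decides it: smooth muscle had 2 genes with the conservative list, and epicardium 2 without replicate 1. The genes of macrophages own only 0.196 Mb of eligible sequence, against 2.31 Mb for the cardiac transcription factors.

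Signalling lists stood at similar levels. TGF-beta, BMP and SMAD genes had 8 of 17 and 15.5 per Mb, led by the inhibitory Smad6 with 5 peaks, the receptor Tgfbr2 and the ligand Bmp10 with 2 each. Genes of the YAP and TEAD response had 7 of 18 and 16.8 per Mb, led by Ankrd1, Tead1 and Nuak2. Clock and glucocorticoid response genes had 9 of 19 and 29.2 per Mb, led by Ddit4 with 10 (6 merged sites). That density leans on Ddit4, which holds 10 of the 30 calls within 41.6 kb of the 1.03 Mb of eligible sequence. The clock repressor Bhlhe40 had 6 (3 merged sites), of which 0 recurred, and Nfil3, a repressor of D-box genes, had 4. Immediate early genes had 6 of 14 and 21.6 per Mb, led by Fos with 6, Jun with 3 and Fosb with 2. The contrast lists of other organs had 1 of 16 neuronal genes (Dlx2), 1 of 18 liver genes (Foxa2) and 1 of 12 skeletal muscle genes (Myog), and 0 of these peaks recurred. Each of these counts rests on 1 gene. Without replicate 2 the neuronal list had 2 of 16 genes, against a background of 12.5% in that setting, and the liver list had 0. Without replicate 1 the skeletal muscle list had 0. The densities were 1.61 per Mb for the neuronal, 1.40 for the liver and 2.79 for the skeletal muscle list.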

How the data were processed

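EP300 ChIP-seq was analysed from 2 libraries of newborn mouse heart. The authors called peaks against control libraries and deposited peak lists on mm10: 1 list of 300000 peaks for each replicate, 1 pooled list, and optimal and conservative lists taken by the irreproducible discovery rate (IDR), per the file headers. The deposited values used are the authors' signal, the −log10 q of the peak caller and a score. Not given in the sources used here are the aligner, the peak caller, the IDR threshold and the scale of the signal.

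Summits were classed on GENCODE M21 (52063 distinct protein-coding TSS positions). Peaks of the optimal list outside chromosomes 1 to 19 (203) were left out. Other classes were promoter (within 1 kb), distal exonic, distal intronic, and intergenic over 1 to 10 kb or over 100 kb. Tests were Fisher's exact tests and exact sign tests, two-sided, with Benjamini-Hochberg adjustment and a threshold of 0.05. Intervals are 95% exact (Clopper-Pearson). The motif and class scripts were tested on simulated data. The 18 gene lists hold 364 entries. Named are nearest and flanking genes of the 12 strongest peaks, the 10 genes with most peaks, the nearest genes of the 6 chains with the highest summed signal and the 3 genes with most peaks in each list. One of these loci is not reported here. Non-coding genes inside those chains and any other gene were chosen after their values were seen. The members, lists, motifs and tests were chosen with earlier results of these data known. Alternatives were the conservative list, each replicate alone, merged sites, other distances, windows, thresholds, TSS sets and gene assignments. Tools were SciPy 1.17.1, pysam 0.24.0, pandas 2.3.3, numpy 2.4.6 and matplotlib 3.10.9 under Python 3.11.15.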

Additional observations from a re-analysis of the deposited data

How the results depend on the processing

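No paired analysis was possible because the samples form 1 group. With the conservative list, the odds ratio for −log10 q of at least 2 against intergenic peaks over 1 to 10 kb turned to 1.19 (adjusted exact p = 0.0493), that for the highest quintile against peaks over 100 kb turned to 1.03, the genes with a peak were 10.8%, and 7 class comparisons of motifs passed. With merged sites, recurrence against intronic peaks passed (odds ratio 1.13, adjusted exact p = 0.0494) and the quintile against peaks over 100 kb turned to 1.03. Recurrence against intronic peaks also passed with a wider distance for shared summits (1.18, adjusted exact p = 0.00219) and with the first 10000 peaks (1.15, adjusted exact p = 0.0292), and against peaks over 100 kb with the first 30000 (0.824, adjusted exact p = 0.0202). Against peaks over 1 to 10 kb it turned to 0.980 at 50 bp and 0.933 at the wider distance. With −log10 q of at least 1.3 the odds ratios were 1.03 against intronic peaks, 1.02 over 1 to 10 kb and 0.779 over 100 kb (adjusted exact p = 0.0444). At 5 no peak passed, since the highest −log10 q is 3.57. For the highest decile they were 0.935 over 1 to 10 kb and 1.02 over 100 kb. With intronic peaks at 10 to 100 kb only, an alternative added after seeing the data, they were 1.08 for −log10 q and 1.14 for the quintile.

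Leaving out 1 replicate gave odds ratios for −log10 q of 1.13 to 1.23 against intronic peaks, 0.962 to 1.12 over 1 to 10 kb and 0.974 to 1.06 over 100 kb, and for the quintile of 1.13 to 1.22 against intronic peaks. The genes with a peak were then 12.5% to 12.9%, and 7 to 9 class comparisons passed. With both flanking genes counted, 18.7% of genes had a peak. With genes of all types in the rule, 13.2% of the list were members. Class comparisons passed 5 times with 100 bp windows and 3 times above the median signal. The ERR ratio, 0.982, was 1.19 with 100 bp windows, 1.04 with 300 bp windows, 1.56 with flanks at 2 kb, 0.793 to 1.18 without 1 replicate and 1.08 above the median signal. Between 15 and 18 motifs passed over the flanks under every alternative run. CREB lost its call with 100 bp windows, forkhead with flanks at 2 kb and above the median signal, and CTCF above the median signal. The cause of these changes was not tested. With the depth unknown, no interval could be given for the signal of a single peak.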
